A study of Mus musculus with 11 samples.

Results

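Genes of γδ intraepithelial lymphocytes and of the butyrophilin-like family were followed in mouse colon tissue. The 10 genes were chosen by symbol, and all 10 had a row in the table of 22836 genes. They are *Trdc*, *Trgc1*, *Trgc2* and *Trgc4*, the constant regions of the δ and γ receptor chains, *Itgae* and *Cd160*, surface molecules of intraepithelial lymphocytes, and *Btnl1*, *Btnl2*, *Btnl4* and *Btnl6*, the butyrophilin-like genes. In short, 5 of the 6 lymphocyte genes were called higher in non-transferred *Tfam* fl/fl *Cd4* Cre than in control colon, whereas *Btnl1*, 1 of the 4 butyrophilin-like genes, was called lower. Of all genes tested 22.7% were called higher and 22.9% lower in this comparison, so that 1 of 4 is near the share of all genes. The ratio of *Btnl1* to *Btnl6*, taken up after the values were seen, lay between both other groups in transferred colons. With so few libraries no ratio could pass adjustment over the ratios tested, so this order is a description.

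The control group was *Tfam* fl/fl (3 colon libraries). The other 8 libraries were *Tfam* fl/fl *Cd4* Cre, 3 of them non-transferred and 5 from mice that had received CD4 T cell therapy, called the transferred group here. All mice carried the floxed *Tfam* alleles, and the cells given came from young CD45.1 mice. The mice of the transfer experiment were about 10 months old per the study's text. The *Cd4* promoter drives Cre in developing T cells that pass through a stage with both coreceptors, so CD4 and CD8 T cells lose TFAM, the transcription factor of the mitochondrial genome. The γδ lineage leaves this pathway before that stage. The labels give no animal for a library, so a p-value here reflects only how far the samples spread.

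γδ T cells carry a receptor of a γ and a δ chain and are enriched among the lymphocytes that sit between the epithelial cells of the gut. Integrin CD103, of which *Itgae* encodes the αE chain, binds E-cadherin of epithelial cells and holds these lymphocytes in place. Butyrophilin-like proteins are membrane proteins of enterocytes. Btnl1 and Btnl6 pair on the enterocyte surface and maintain the Vγ7 subset of intraepithelial γδ T cells in the small intestine, *Btnl4* is a close relative of *Btnl6*, and Btnl2 restrains T cell activation.

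The libraries held 18214741 to 19178986 reads in genes, and 1 read was worth 0.913 to 1.10 normalized counts. Differences were tested by limma on a log2 scale, after adding 1 to each normalized count, over the 16781 genes whose mean reached 10, and a gene was called at a Benjamini-Hochberg adjusted p under 0.05. In the tissue *Tfam* had 977 to 1083 normalized counts in control, 1040 to 1102 in non-transferred and 865 to 1091 in transferred libraries. T cells are a small part of the tissue, so this level does not check the deletion. *Cd4* ran from 46.7 to 99.2, 263 to 358 and 80.5 to 345 normalized counts in the same order. Mitochondrial transcripts took 4.63% to 6.73%, 2.55% to 3.44% and 3.84% to 4.82% of the reads.

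All 10 genes passed the filter, each with a mean above 10 in every group. The 4 butyrophilin-like genes lie close together on chromosome 17 of GRCm39: *Btnl2* (ENSMUSG00000024340) at chr17:34573796-34589290 and *Btnl1* (ENSMUSG00000062638) at chr17:34596106-34605002 on the plus strand, *Btnl4* (ENSMUSG00000058435) at chr17:34685536-34696292 and *Btnl6* (ENSMUSG00000092618) at chr17:34726778-34736326 on the minus strand. The γ constant genes are on chromosome 13, *Trgc1* (ENSMUSG00000076749) at chr13:19398273-19401194 and *Trgc4* (ENSMUSG00000076757) at chr13:19528728-19536926 on the plus strand and *Trgc2* (ENSMUSG00000076752) at chr13:19488819-19491721 on the minus strand. *Trdc* (ENSMUSG00000104876) is at chr14:54380308-54386325 on the plus strand. Its 3′ end overlaps *Trdv5* on the other strand, and the strand setting of the counting is not given in the sources used here. *Itgae* (ENSMUSG00000005947) is at chr11:72981409-73039917 on the plus strand and *Cd160* (ENSMUSG00000038304) at chr3:96706079-96736667 on the minus strand.

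The 250 bases before the start of each butyrophilin-like gene are shown because the log2 fold changes of these neighbours against control differed in sign. Only that of *Btnl1* was called. They are RefSeq windows tabulated on GRCm38.p6, placed on GRCm39 by an exact match, 5′ to 3′ on the strand of the gene, at chr17:34595856-34596105 (*Btnl1*), chr17:34573546-34573795 (*Btnl2*), chr17:34694912-34695161 (*Btnl4*) and chr17:34736327-34736576 (*Btnl6*). The *Btnl4* start of RefSeq lies inside the span that GENCODE gives the gene. Capitals mark the match to a searched motif.
Btnl1: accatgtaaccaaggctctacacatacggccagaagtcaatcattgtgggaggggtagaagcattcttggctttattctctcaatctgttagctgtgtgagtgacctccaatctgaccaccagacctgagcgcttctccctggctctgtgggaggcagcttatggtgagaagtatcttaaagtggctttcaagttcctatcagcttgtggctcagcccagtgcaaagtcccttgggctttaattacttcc
Btnl2: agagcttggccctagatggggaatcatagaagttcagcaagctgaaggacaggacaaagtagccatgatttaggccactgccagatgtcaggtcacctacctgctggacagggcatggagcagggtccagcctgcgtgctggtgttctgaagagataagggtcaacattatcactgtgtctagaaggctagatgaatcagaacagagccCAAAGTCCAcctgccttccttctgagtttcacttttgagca
Btnl4: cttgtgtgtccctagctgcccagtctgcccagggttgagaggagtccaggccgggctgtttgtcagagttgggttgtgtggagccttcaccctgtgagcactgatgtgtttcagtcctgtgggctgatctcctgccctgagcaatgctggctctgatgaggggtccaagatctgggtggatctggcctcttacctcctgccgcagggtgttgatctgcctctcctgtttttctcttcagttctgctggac
Btnl6: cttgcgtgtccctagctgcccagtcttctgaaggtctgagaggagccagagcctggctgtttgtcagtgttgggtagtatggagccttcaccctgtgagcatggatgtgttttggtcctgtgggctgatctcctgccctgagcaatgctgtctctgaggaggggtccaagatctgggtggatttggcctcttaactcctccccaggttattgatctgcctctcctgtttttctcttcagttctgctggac

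The windows of *Btnl4* and *Btnl6*, extended by the 50 bases after the start, were identical at 91.0% of 299 aligned bases, and the other pairs at 58.5% to 63.7%. Motifs searched on both strands of the 300-base windows included the following 3. The HNF4 motif CAAAGTNCA, of an enterocyte transcription factor, was present in 1.41% of 32851 windows of the table, the CDX motif TTTATNG in 10.9% and an interferon-stimulated response element in 3.44%. *Btnl2* held the HNF4 motif at positions -41 to -33 from its start, on the strand of the gene. The windows of *Btnl1*, *Btnl4* and *Btnl6* held none of these 3 motifs, which says only that these letters are not in these windows.

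The first 90 coding bases of the γ constant regions are shown because near-identical copies decide how far their reads can be told apart. They come from the GENCODE transcripts, 5′ to 3′, and capitals mark bases that differ from *Trgc1*.
Trgc1: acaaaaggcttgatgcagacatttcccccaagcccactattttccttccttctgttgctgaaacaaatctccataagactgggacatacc
Trgc2: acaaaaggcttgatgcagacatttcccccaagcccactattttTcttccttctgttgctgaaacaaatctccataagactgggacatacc
Trgc4: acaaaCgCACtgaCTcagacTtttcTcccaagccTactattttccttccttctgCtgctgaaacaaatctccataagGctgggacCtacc

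*Trgc2* differed from *Trgc1* at 1 of these 90 bases and *Trgc4* at 12. Over the aligned transcripts *Trgc1* and *Trgc2* were 96.0% identical, and *Trgc1* and *Trgc4* 71.7%. Of all 50-base stretches of *Trgc1*, 29.6% also occurred in another gene, and of those of *Trgc2* 25.4%, so their split of reads is uncertain. No 50-base stretch of *Trgc4*, *Itgae*, *Cd160*, *Btnl1* or *Btnl2* was shared. For *Btnl4* and *Btnl6*, whose transcripts were 90.1% identical, the shared portions were 14% and 6.58%, shared with each other, with the pseudogenes *Btnl5-ps* and *Btnl7-ps* and with further genes.

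Of the 4 δ and γ constant genes, 3 were called higher in the non-transferred group than in control colon, where 22.7% of all genes were. *Trdc*, which encodes the constant region of the δ chain, had 39.6, 24.9 and 13.2 normalized counts in control libraries, 264, 302 and 147 in non-transferred libraries and 88.5, 73.4, 61.9, 199 and 102 in transferred libraries. All non-transferred libraries lay above all control libraries, and transferred replicate 4 lay within the non-transferred range. The log2 fold change of *Trdc* between non-transferred and control colon was 3.21 (standard error, SE, 0.46, adjusted p = 0.000266 by limma). In control colon the gene rested on 12 to 42 reads per library.

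*Trgc1*, the γ constant region joined by the Vγ7 segment, had 35.8, 24.9 and 15.4 normalized counts in control, 152, 144 and 96.4 in non-transferred and 91.3, 55.3, 52.1, 124 and 90.9 in transferred libraries. *Trgc2* had 26.4, 17.9 and 22.1, then 111, 80.4 and 82.1, then 70.3, 33.2, 39.3, 135 and 104. Both were without overlap between control and either other group. Their log2 fold changes between non-transferred and control colon were 2.37 (SE 0.37, adjusted p = 0.000446 by limma) and 2.00 (SE 0.46, adjusted p = 0.00431).

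*Trgc4*, the γ constant region of the Vγ1 cluster, had 22.6, 12.9 and 19.8 normalized counts in control, 50.9, 62.0 and 27.4 in non-transferred and 45.6, 28.2, 18.7, 65.7 and 69.0 in transferred libraries. The control and non-transferred groups did not overlap, but the log2 fold change of 1.25 (SE 0.49, 95% interval 0.19 to 2.31) missed the threshold (adjusted p = 0.0532 by limma). It passed without non-transferred replicate 4 (adjusted p = 0.0334) and without transferred replicate 3 or 5 (0.0287 and 0.0431), which enter only through the shared spread. It also passed with edgeR (adjusted p = 0.0452), DESeq2 (0.0264), quantile normalization (0.0318) and only both groups compared (0.0286). Per kilobase of exon, the mean levels in control colon were 27.5 for *Trgc1*, 24.2 for *Trgc2*, 18.7 for *Trgc4* and 6.70 for *Trdc*, and the ranges of the 3 γ genes overlapped. In non-transferred colon these means were 142 for *Trgc1*, 99.6 for *Trgc2*, 61.5 for *Trdc* and 47.5 for *Trgc4*. There *Trgc1* and *Trgc2* overlapped each other and lay above *Trdc* and *Trgc4*, which also overlapped.

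*Itgae* had 29.2, 35.8 and 35.3 normalized counts in control, 211, 155 and 191 in non-transferred and 133, 71.4, 69.8, 282 and 134 in transferred libraries. The control libraries lay close together and below all others, and transferred replicate 4 was the highest of all 11. The log2 fold change of *Itgae* between non-transferred and control colon was 2.43 (SE 0.43, adjusted p = 0.000861 by limma). *Cd160*, a receptor for the TNF receptor family member HVEM, had 17.0, 5.96 and 12.1 normalized counts in control, 48.0, 65.9 and 25.2 in non-transferred and 40.2, 12.1, 13.8, 54.3 and 42.7 in transferred libraries. Its log2 fold change of 1.90 (SE 0.60, adjusted p = 0.0232 by limma) rested on 6 to 18 reads per control library. The call of *Cd160* was lost without control replicate 2 or non-transferred replicate 1 or 3 (adjusted p = 0.0931, 0.0590 and 0.0902).

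**Figure D1:**
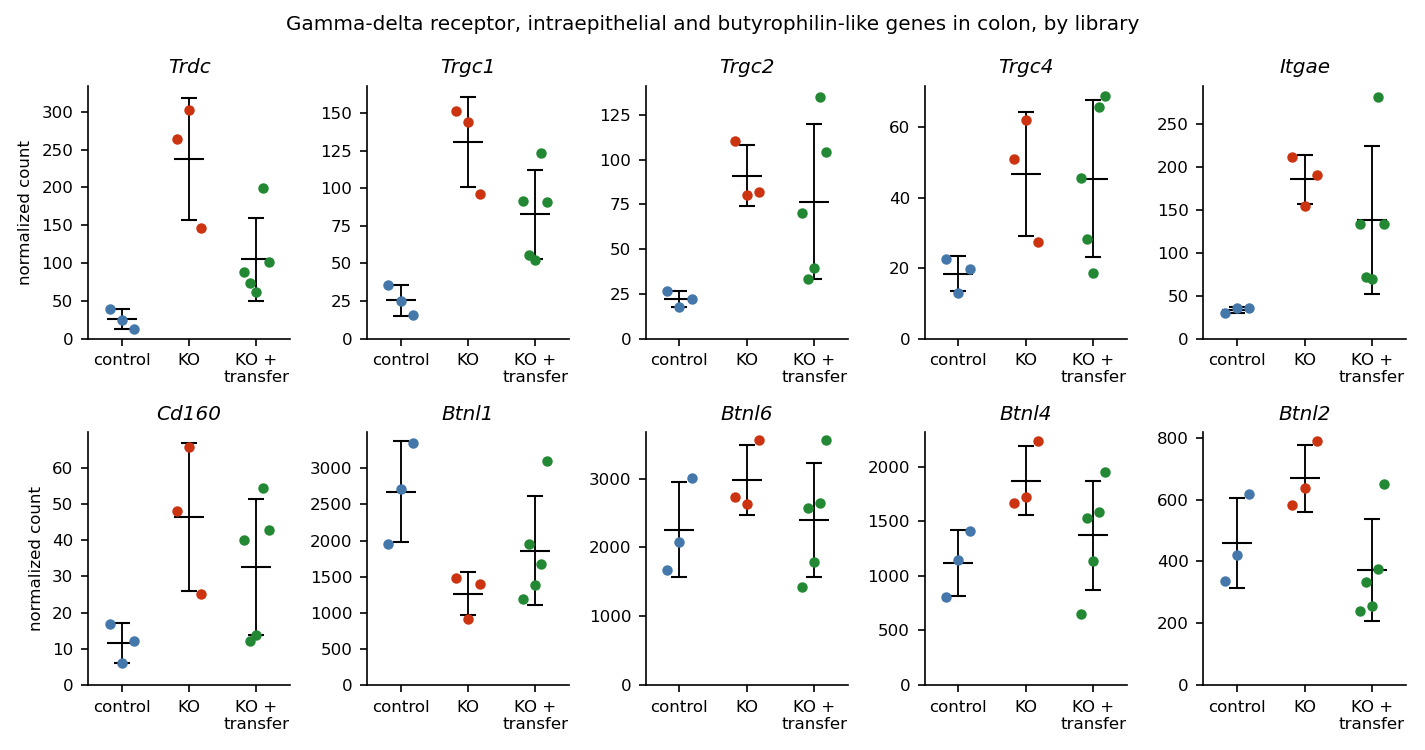
Normalized counts (vertical axis, linear and starting at 0, each gene on its own scale) of the 10 genes in each library of control, KO (non-transferred *Tfam* fl/fl *Cd4* Cre) and KO + transfer colon; points are libraries and bars the mean and SD (n = 3, 3 and 5). *Trdc* runs from 13.2 to 39.6 in control and from 147 to 302 in KO libraries, and *Btnl1* from 1958 to 3353 and from 918 to 1475.

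Of the 10 genes, 5 were called higher (*Trdc*, *Trgc1*, *Trgc2*, *Itgae* and *Cd160*) and 1 lower (*Btnl1*) in non-transferred against control colon. Over all genes tested 45.5% were called in this comparison, 22.7% higher and 22.9% lower. *Trgc4* and *Btnl4* were also above control without overlap, which makes 7 genes, and 1 was below, against 29.0% and 27.9% of all genes. The median log2 fold change was 1.58 over the 10 genes and 0.02 over all genes tested.

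After the transfer, 2 of the 10 genes were called lower than in non-transferred colon, *Trdc* and *Btnl2*, and none higher, while over all genes 14.2% were called lower and 17.0% higher, together 31.2% (limma). The log2 fold change of *Trdc* between transferred and non-transferred colon was -1.23 (SE 0.41, adjusted p = 0.0412 by limma), with overlap through transferred replicate 4. This call was lost with no variance trend (adjusted p = 0.0534) and in 7 of the 11 fits that left out a library, namely control replicate 2, non-transferred replicate 1 or 3, or transferred replicate 1, 2, 3 or 5 (adjusted p = 0.0537 to 0.161). For *Trgc1* the difference was -0.70 (95% interval -1.43 to 0.03, adjusted p = 0.129), for *Trgc2* -0.43 (-1.33 to 0.47, adjusted p = 0.451) and for *Itgae* -0.61 (-1.44 to 0.22, adjusted p = 0.244). The intervals hold both no change and more than a halving in linear terms. *Itgae* was called lower without transferred replicate 4 (log2 fold change -0.92, adjusted p = 0.0254). The differences of *Trgc4* (-0.12, adjusted p = 0.856) and *Cd160* (-0.62, adjusted p = 0.406) were also not called, and that of *Trgc4* was positive without non-transferred replicate 3 or transferred replicate 2 or 3 (0.12, 0.01 and 0.15). No gene of the 10 was without overlap between transferred and non-transferred libraries, where 16.6% of all genes were lower without overlap.

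Against control colon, *Trdc*, *Trgc1* and *Itgae* were called higher in transferred colon, 3 of 10 genes, beside 1.14% of all genes called higher, and none of the 10 was called lower, beside 0.453% (1.6% in either direction). Their log2 fold changes were 1.98 (adjusted p = 0.0436), 1.67 (adjusted p = 0.0345) and 1.82 (adjusted p = 0.0430 by limma). With *Trgc2*, 4 of the 10 were above control without overlap, as were 6.09% of all genes, and none was below, against 5.49%. These calls rested on small margins. No gene of the 10 was called higher with edgeR (adjusted p = 0.0622, 0.0511 and 0.0547 for *Trdc*, *Trgc1* and *Itgae*), with no variance trend (0.0629, 0.0531 and 0.0623) or with only both groups compared (0.0745, 0.0726 and 0.0868). With DESeq2 on the recovered reads these 3 and *Trgc2* (adjusted p = 0.00375) were called. Leaving out a control library ended all 3 calls, with adjusted p of 0.0577 to 0.108 without replicate 1, 0.185 to 0.193 without replicate 2 and 0.0805 to 0.103 without replicate 3. Transferred replicate 1 left out ended all 3 as well (0.0810 to 0.0923), as did non-transferred replicate 3 (0.0527 to 0.0601). *Trdc* and *Itgae* were lost without non-transferred replicate 1 (0.0594 and 0.0590), *Itgae* without non-transferred replicate 4 (0.0634), *Trdc* without transferred replicate 3 (0.0612), and *Trdc* and *Trgc1* without transferred replicate 4 (0.0668 and 0.0704). *Trgc2* was gained without transferred replicate 2 (0.0234). The log2 fold changes of the 3 genes stayed between 1.37 and 2.34 over these fits.

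**Figure D2:**
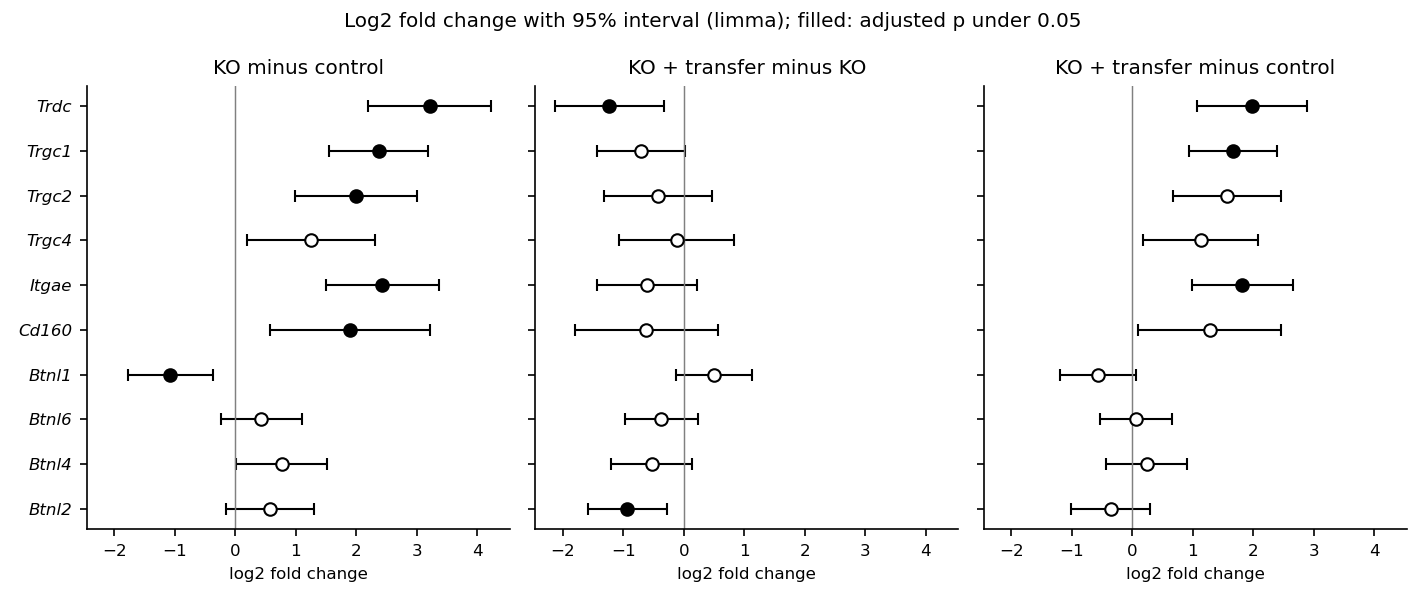
Log2 fold change (horizontal axis) of each of the 10 genes with its 95% interval from limma in the 3 comparisons; filled points have an adjusted p under 0.05. *Trdc* stands at 3.21, -1.23 and 1.98 from left to right, and *Btnl1* is on the negative side against control, at -1.08 in KO colon and -0.57 in KO + transfer colon.

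Among the segments that are joined to these constant regions, 10 of 22 listed genes had a row and 3 passed the filter, largely through the groups in which they were high, so they are given as values. *Trdv4*, a variable segment of the δ locus, had 5.65, 0.994 and 1.10 normalized counts in control, 60.7, 94.9 and 77.7 in non-transferred and 21.0, 11.1, 23.6, 23.8 and 6.57 in transferred libraries. No 2 of the 3 groups overlapped, but transferred replicate 5 (6.57) and control replicate 1 (5.65) lay close, at a few reads each. Of all genes tested, 29.0% were higher without overlap in non-transferred than in control colon. After the transfer 16.6% were lower without overlap, and 6.09% were higher without overlap in transferred than in control colon. *Trgv7*, the segment of the Vγ7 chain, had 2.83, 0.994 and 0 normalized counts in control, 21.5, 10.7 and 14.2 in non-transferred and 8.22, 6.04, 5.90, 18.1 and 25.2 in transferred libraries. Its transferred libraries lay above control and spanned the non-transferred range. *Trgv6*, the segment of the IL-17-producing Vγ6 subset, was not tested: it had no read in any control library, 8.81, 7.75 and 1.10 normalized counts in non-transferred libraries and at most 1.10 in transferred libraries. *Trgc3* had no read in the control libraries and at most 6.85 normalized counts elsewhere.

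The genes of the αβ receptor and CD3 complex were also higher in non-transferred than in control colon. Of 10 listed, 9 were tested and all 9 were called higher in this comparison (median log2 fold change 2.30), beside 22.7% of all genes. After the transfer 2 (*Cd3d* and *Cd3g*) were called lower (median -0.68), beside 14.2% of all genes. In transferred against control colon 4 were called higher (median 1.55), beside 1.14%. Their summed level was 268 to 355 normalized counts in control, 1489 to 1599 in non-transferred and 547 to 1599 in transferred libraries. *Trac*, the α constant region, had a log2 fold change of 2.30 (SE 0.34, adjusted p = 0.000282 by limma) between non-transferred and control colon. In bulk tissue a larger number of cells and more RNA per cell cannot be told apart.

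Ratios taken within a library compared the γδ genes with their αβ counterparts, free of the library factor. The ratio of *Trdc* to *Trac* was 1.39, 1.19 and 0.714 in control, 2.14, 3.05 and 1.21 in non-transferred and 0.961, 1.73, 0.927, 1.58 and 1.45 in transferred libraries. All groups overlapped. The difference of the log2 ratio was 0.91 between non-transferred and control colon (two-sided exact permutation p = 0.2, where 3 against 3 libraries allow no less than 0.1; adjusted p = 0.551 over 18 such tests) and -0.63 between transferred and non-transferred colon (exact permutation p = 0.179, smallest possible 0.0357). The ratio of *Trgc1*, *Trgc2* and *Trgc4* to the β constant genes *Trbc1* and *Trbc2* differed by 0.14 on the log2 scale between non-transferred and control colon (exact permutation p = 0.6) and by 0.43 between transferred and control colon (exact permutation p = 0.214). The ratio of *Itgae* to *Cd3e*, a chain of the T cell receptor complex, was 0.84 to 1.07 in control, 0.947 to 1.57 in non-transferred and 0.960 to 1.43 in transferred libraries (log2 difference 0.28 between non-transferred and control, exact permutation p = 0.4). That of *Cd160* to *Cd3e* was 0.178 to 0.494, 0.144 to 0.404 and 0.195 to 0.376 (difference -0.22, exact permutation p = 0.6). A p that misses the threshold with so few libraries does not show that the proportions were alike.

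**Figure D3:**
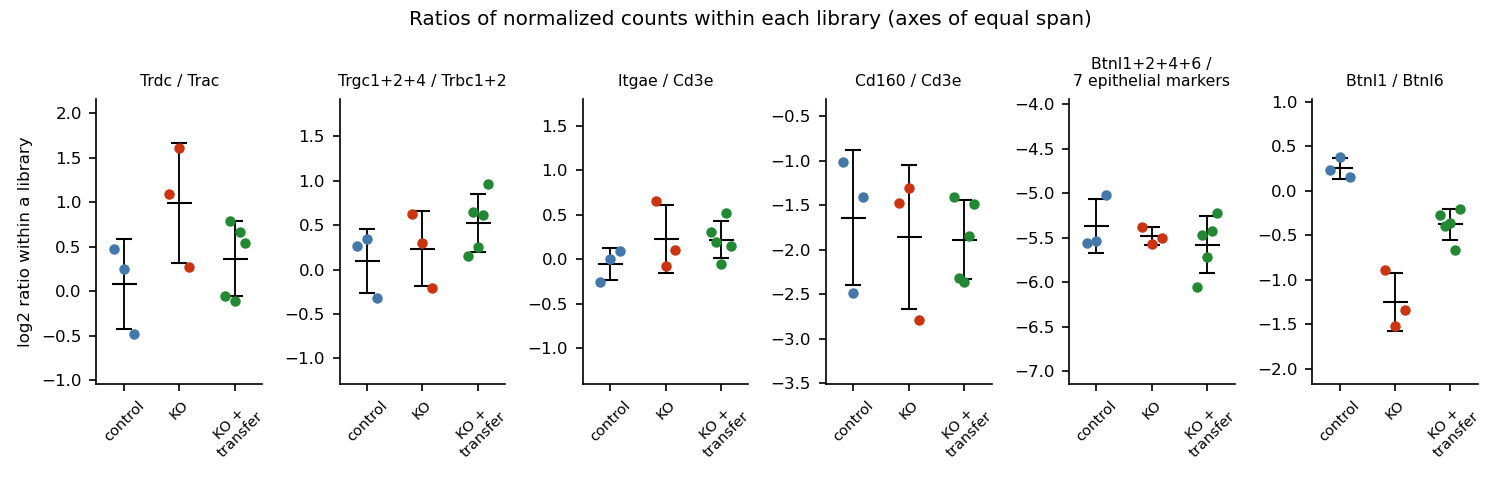
Log2 of 6 ratios of normalized counts within each library (vertical axes of equal span) in control, KO (non-transferred) and KO + transfer colon; points are libraries and bars the mean and SD (n = 3, 3 and 5). The groups overlap in each ratio but that of *Btnl1* to *Btnl6*, where the means are 0.26, -1.25 and -0.38.

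Effector and residency genes of intraepithelial lymphocytes, a list of 25 of which 23 were tested, gave 21 higher and none lower in non-transferred than in control colon (limma, median log2 fold change 2.25), 7 lower and none higher after the transfer (median -0.79), and 9 higher than control in transferred colon (median 1.44). Of all genes tested 22.7% were called higher and 22.9% lower in the first comparison. After the transfer 14.2% were called lower and 17.0% higher, and 1.14% were called higher in transferred than in control colon. Of the 23, 4, all among those called higher in non-transferred colon, had a control mean under 10 and passed the filter through other groups. Their sum was 960 to 1031 normalized counts in control, 4600 to 4852 in non-transferred and 1921 to 4616 in transferred libraries. *Gzmb*, a granzyme of cytotoxic lymphocytes, and *Ccl5*, a chemokine of T cells, were higher in transferred than in control colon by 2.84 (adjusted p = 0.00540) and 2.89 (adjusted p = 0.000577) on the log2 scale. *Tyrobp* and *Fcer1g*, signalling adaptors that myeloid cells use as well, were called lower after the transfer (log2 fold change -1.16 and -1.05, adjusted p = 0.00311 and 0.00288). Of the IL-17-type γδ list 9 of 13 genes were tested. In non-transferred against control colon 4 were called higher and 1, *Zbtb16*, lower (median 0.16), beside 22.7% and 22.9% of all genes. Of the 4, *Il17a* and *Ccr6* had a control mean under 10 and passed the filter through other groups. *Il17a* had 0 to 2.21 normalized counts in control, 17.5 to 158 in non-transferred and 1.01 to 6.57 in transferred libraries. *Blk*, a kinase that B cells use as well, was called higher in non-transferred colon (log2 fold change 3.21) and lower after the transfer (-1.95).

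Other cells can carry *Itgae* and *Cd160*, such as dendritic cells, NK cells and CD8 T cells, and markers of these cells were examined. Of 10 dendritic cell markers 7 were called higher and 1, *Cd209a*, lower in non-transferred than in control colon, beside 22.7% and 22.9% of all genes. Their sums were 4663 to 7496 normalized counts in control, 8996 to 11974 in non-transferred and 5664 to 11399 in transferred libraries. *Cd24a*, not called in any comparison, made up much of these sums, with means of 4110, 4989 and 5990 in the same order. Of the 10, 3 had a mean under 10 in control and *Cd209a* in non-transferred colon, so that they too passed the filter through other groups. Of 6 tested markers of NK and innate lymphoid cells (9 of 10 measured) 3 were called higher and none lower, with sums of 492 to 594, 1008 to 1945 and 551 to 881. Of these 3, *Il22* and *Gata3* had a control mean under 10 and passed the filter through other groups. The count is therefore no support for a direction. The NK cell markers *Eomes* (log2 fold change -0.58, adjusted p = 0.513 by limma) and *Klrb1b* (2.27, adjusted p = 0.0554) were not called. *Cd8a*, a CD8 coreceptor chain, had a log2 fold change of 2.49 (adjusted p = 7.85e-05 by limma). *Cd8b1*, the other CD8 chain, was under the filter, with means of 2.36 in control, 8.96 in non-transferred and 6.30 in transferred colon. No marker of these lists with a row was at 0 in all libraries of a group. Their part in the values of *Itgae* and *Cd160* was not tested.

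Of the 4 butyrophilin-like genes 1, *Btnl1*, was called between non-transferred and control colon, and it was lower, a share near the 22.9% of all genes called lower. *Btnl1* had 1958, 2715 and 3353 normalized counts in control, 1475, 918 and 1405 in non-transferred and 1187, 1956, 1389, 1675 and 3101 in transferred libraries. All 3 non-transferred libraries lay below all control libraries, and the transferred libraries spanned both. The log2 fold change was -1.08 (SE 0.32, adjusted p = 0.0175 by limma) between non-transferred and control colon. The call was lost without control replicate 2 or 3 or non-transferred replicate 3 (log2 fold change -1.05, -0.90 and -0.86, adjusted p = 0.0513, 0.0677 and 0.0768).

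*Btnl6*, which encodes the partner of Btnl1, had 1670, 2081 and 3018 normalized counts in control, 2736, 2631 and 3565 in non-transferred and 1432, 2569, 1788, 2649 and 3561 in transferred libraries. The groups overlapped, and the log2 fold change between non-transferred and control colon was 0.43 (95% interval -0.24 to 1.10, adjusted p = 0.274). *Btnl4* had 807, 1141 and 1407 normalized counts in control, 1662, 1722 and 2233 in non-transferred and 648, 1531, 1133, 1586 and 1952 in transferred libraries. Its non-transferred libraries lay above the control libraries, and the difference of 0.77 on the log2 scale (SE 0.34, adjusted p = 0.0876) was called without transferred replicate 1 (adjusted p = 0.0183) and with only both groups compared (0.0180). *Btnl2* had 336, 421 and 620 normalized counts in control, 582, 636 and 788 in non-transferred and 239, 335, 256, 375 and 649 in transferred libraries. The difference of *Btnl2* from control was 0.58 (95% interval -0.15 to 1.30, adjusted p = 0.178). Over the 25 settings run, the log2 fold change against control stayed negative for *Btnl1* (-1.28 to -0.86) and positive for *Btnl6* (0.24 to 0.66), *Btnl4* (0.55 to 0.95) and *Btnl2* (0.38 to 0.82).

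After the transfer *Btnl2* was called lower than in non-transferred colon (log2 fold change -0.93, SE 0.30, adjusted p = 0.0332 by limma), with overlap through transferred replicate 5. This call was lost without any 1 of the non-transferred replicates (adjusted p = 0.0501, 0.0845 and 0.127) and without transferred replicate 1, 2 or 3 (0.0614, 0.0597 and 0.0699). *Btnl1* differed by 0.50 (SE 0.29, adjusted p = 0.205), *Btnl4* by -0.53 (95% interval -1.20 to 0.14, adjusted p = 0.208) and *Btnl6* by -0.37 (-0.97 to 0.23, adjusted p = 0.329). Against control colon none of the 4 was called in transferred colon, with log2 fold changes of -0.57 for *Btnl1*, -0.36 for *Btnl2*, 0.24 for *Btnl4* and 0.06 for *Btnl6*. The last was negative without control replicate 1 or transferred replicate 5 (-0.13 and -0.10), and both of the last were negative with the replicate number as a block.

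The proportions within the family are given as a description. They are tied together, since a lower share of 1 gene raises those of the others. *Btnl1* made up 41.0%, 42.7% and 39.9% of the summed normalized count of the 4 genes in control, 22.9%, 15.5% and 17.6% in non-transferred and 33.9%, 30.6%, 30.4%, 26.6% and 33.5% in transferred libraries. No library of a group reached into another group. *Btnl6* made up 32.7% to 35.9% in control, 42.4% to 44.6% in non-transferred and 38.4% to 42.1% in transferred libraries, while *Btnl4* ran from 25.8% to 29.2% in non-transferred and from 18.5% to 25.2% in transferred libraries, all above control (mean 17.2%). *Btnl2* stood at 6.63% to 7.38% in control and 5.24% to 7.01% in transferred libraries, which overlapped, and at 9.01% to 10.8% in non-transferred libraries. These shares are of counts and are not scaled by length.

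**Figure D4:**
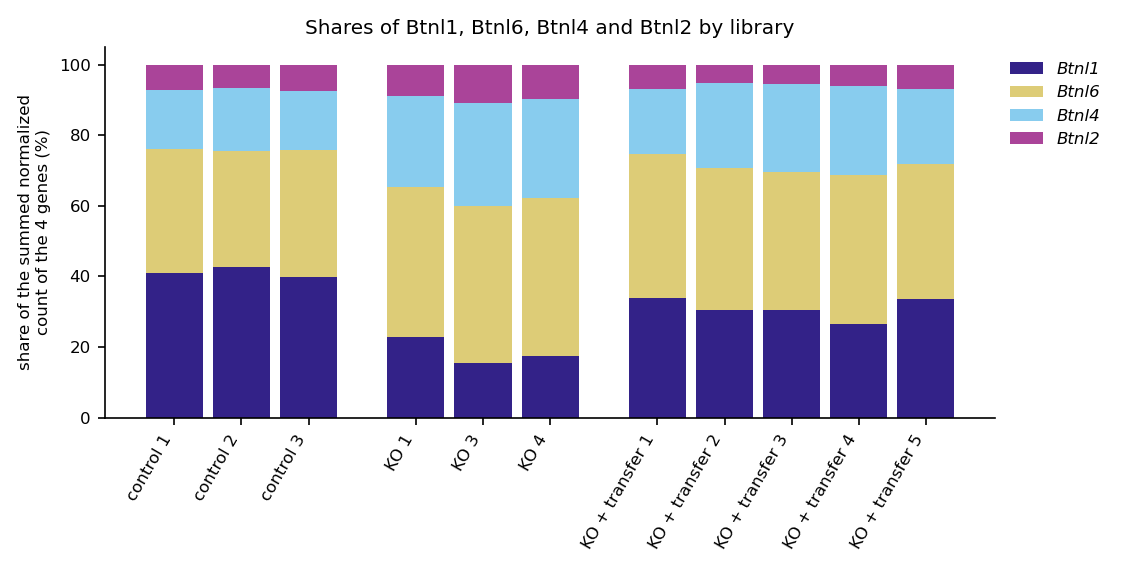
Share of each butyrophilin-like gene in the summed normalized count of the 4 genes (vertical axis, percent, from 0 to 100) in each of the 11 libraries; KO stands for the non-transferred group. *Btnl1* takes 39.9% to 42.7% in control, 15.5% to 22.9% in KO and 26.6% to 33.9% in KO + transfer libraries.

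The ratio of *Btnl1* to *Btnl6* was 1.17, 1.30 and 1.11 in control, 0.539, 0.349 and 0.394 in non-transferred and 0.829, 0.761, 0.777, 0.632 and 0.871 in transferred libraries. *Btnl1* thus exceeded *Btnl6* in normalized counts in each control library and in none of the other 8. These counts are not scaled by length. Per kilobase over all exons of a gene *Btnl6* exceeded *Btnl1* in all 11 libraries, in control by 954 against 607, 1188 against 842 and 1723 against 1039. All exons of *Btnl1* span 3226 bases but its longest transcript 2113, while *Btnl6* has 1751 by both. The order of these 2 genes in control colon thus depends on the length taken. This ratio was taken up after the values were seen. Its log2 difference was -1.51 between non-transferred and control colon (two-sided exact permutation p = 0.1, the smallest that 3 against 3 allow). It was 0.87 for the transferred against the non-transferred group and -0.63 for the transferred group against control (exact permutation p = 0.0357 each, the smallest that 5 against 3 allow). Adjusted over the 18 exact permutation tests of ratios these were p = 0.551, 0.321 and 0.321. With these smallest p, no outcome of the 18 tests could bring a ratio to an adjusted p under 0.05, so the adjustment decides nothing here. Leaving out single libraries kept the differences between -1.69 and -1.37, 0.74 and 1.05, and -0.68 and -0.56. *Btnl1* shared no 50-base stretch with another gene, while 6.58% of those of *Btnl6* were shared.

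Per kilobase, again over all exons of a gene, the order of the 4 genes differed between groups. In control libraries *Btnl6* had 954 to 1723, *Btnl1* 607 to 1039, *Btnl4* 339 to 591 and *Btnl2* 99.3 to 183 normalized counts per kilobase, with overlap only of *Btnl6* and *Btnl1*. In non-transferred libraries *Btnl4* (698 to 938) lay above *Btnl1* (285 to 457) without overlap, below *Btnl6* (1503 to 2036) and above *Btnl2* (172 to 233). In transferred libraries *Btnl1* (368 to 961) and *Btnl4* (272 to 820) overlapped. The differences between genes in this order were not tested.

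Of 20 other members of the butyrophilin family 10 had a row and 4 were tested, with 1, *Btnl9*, called lower in non-transferred than in control colon and higher after the transfer (log2 fold change -1.74 and 1.86, adjusted p = 0.00336 and 0.00244 by limma). Of all genes tested 22.9% were called lower and 17.0% higher in these comparisons. *Btnl9*, unlike the 4 genes above, had a low level, 29.2 to 61.7 normalized counts in control libraries. *Btnl5-ps*, annotated as a pseudogene that shares stretches with *Btnl4* and *Btnl6*, had the highest mean level of the family in each group, 1415 to 2085 normalized counts per kilobase in control and 2252 to 3121 in non-transferred libraries. Its log2 fold change was 0.56 (SE 0.25, adjusted p = 0.0828). This difference had the sign of those of *Btnl4* and *Btnl6*, and none of the 3 was called.

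Epithelial markers were examined beside these values. Against the sum of 7 epithelial markers (*Epcam*, *Vil1*, *Krt8*, *Krt19*, *Krt20*, *Cldn7* and *Cdh17*), the log2 ratio of the 4 butyrophilin-like genes differed by -0.11 between non-transferred and control colon (exact permutation p = 0.8), -0.10 after the transfer (p = 0.714) and -0.21 for the transferred group against control (p = 0.393), with overlap throughout. Of 13 colon epithelium markers 4 were called lower and none higher in non-transferred than in control colon, beside 22.9% and 22.7% of all genes. These were *Slc26a3*, *Car1*, *Aqp8* and *Cdhr5*, genes of mature surface colonocytes, with log2 fold changes of -3.78, -2.34, -4.77 and -1.08. The other markers, *Krt20* among them (log2 fold change 0.24, adjusted p = 0.573 by limma), were not called. All 4 were called higher after the transfer, as were 17.0% of all genes. The 13 markers summed to 862279 to 977950 normalized counts in control, 692445 to 749550 in non-transferred and 811745 to 1054109 in transferred libraries, and none was at 0. Smooth muscle markers, 10 of 10, were called lower in non-transferred colon (median log2 fold change -2.68) and higher after the transfer, beside 22.9% and 17.0% of all genes. Their sums were 249421 to 312991, 36057 to 52597 and 109313 to 176253. The part of these shifts in the levels of the butyrophilin-like genes was not tested.

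Of 10 intestinal epithelial transcription factors 4 were called higher in non-transferred than in control colon, *Gata4*, *Elf3*, *Klf5* and *Gata6*, and none lower (median log2 fold change 0.20). Of all genes 22.7% were called higher and 22.9% lower. *Gata4*, a factor of the small intestine that colon largely lacks, had 0 to 5.51 normalized counts in control, 18.6 to 37.2 in non-transferred and 1.91 to 8.76 in transferred libraries. Its mean passed the filter through the non-transferred group alone, so its call is no support for a direction. *Hnf4a* and *Cdx2*, factors of enterocyte identity named here because their motifs were searched, had log2 fold changes of -0.05 (95% interval -0.40 to 0.31) and -0.27 (-0.69 to 0.15) between non-transferred and control colon.

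The partners and ligands of the 10 genes moved in both directions. Of 13, 10 were called higher and 2, *Il15* and *Cxadr*, lower in non-transferred than in control colon (median log2 fold change 1.71), beside 22.7% and 22.9% of all genes. After the transfer 2 were called higher and 4 lower, beside 17.0% and 14.2%. Of the 13, 1 (*Tnfsf14*) had a control mean under 10. *Il15*, the cytokine that sustains intraepithelial lymphocytes, had 395, 535 and 506 normalized counts in control, 162, 94.9 and 182 in non-transferred and 256, 280, 225, 213 and 394 in transferred libraries. Its non-transferred libraries were the lowest, and the transferred libraries lay below all control libraries, though replicate 5 by less than 1 normalized count. The log2 fold change of *Il15* was -1.75 (SE 0.27, adjusted p = 0.00038 by limma) between non-transferred and control and 0.92 (SE 0.24, adjusted p = 0.0135) between transferred and non-transferred colon. The receptor genes *Il2rb*, *Il2rg* and *Il15ra*, which bind or present IL-15, went the other way, with log2 fold changes of 2.94, 2.58 and 1.57 against control and -1.35, -1.38 and -0.81 after the transfer, each called.

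Among the genes whose profile over the 11 libraries was most like that of *Trdc*, by the root mean square difference of centred log2 values among 13385 genes with a mean of at least 50, were *Trgc1* (0.376), *Zap70* (0.429), *Parvg* (0.439) and *Cd3g* (0.439). The nearest to *Btnl1* were *Adtrp* (0.137), *Fahd1* (0.149), *Muc17* (0.160), *Tstd1* (0.166) and *Cdhr2* (0.168). *Muc17* is a membrane mucin and *Cdhr2* a cadherin of the enterocyte brush border. *Muc17* had 85632 to 129332 normalized counts in control, 49138 to 71817 in non-transferred and 58785 to 137883 in transferred libraries. *Cdhr2* had 19184 to 30293, 10201 to 11909 and 12493 to 28021. In both, as in *Btnl1* and in 27.9% of all genes tested, all non-transferred libraries lay below all control libraries. Both genes were picked for a profile like that of *Btnl1* over these same libraries, so this shared order is no separate result. *Btnl2*, *Btnl4* and *Btnl6* were not among the nearest 5.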

How the data were processed

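RNA was purified from a piece of frozen colon and sequenced as stranded mRNA. The authors aligned the reads to GRCm39, counted them per gene and scaled every library with 1 factor. The values they deposited are thus normalized counts (unit: signal). The submitters' processing notes name HISAT2 (2.2.1), SAMtools (1.13), HTSeq (1.99.2) and DESeq2 (1.40.2). The study names a second aligner and a second platform without assigning libraries, and the sources used here give neither annotation release nor strand setting. A single factor keeps shifts in tissue makeup in the values.

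Every value was a whole multiple of 1 step per library within 0.05, which gave back the reads. Libraries of a group differed by at least 21.9 chi-square units per degree of freedom, so none was counted as a repeat. A GENCODE annotation of GRCm39 named 99.2% of the identifiers. Groups were compared in 1 fit of all 11 libraries by limma (3.58.1, under R 4.3.3), with variance trend, on log2 values after adding 1 to the normalized counts. This scale understates changes of low genes. Alternatives were pseudocounts of 0.5 and 10, a filter at a mean of 50 or none, TMM and quantile scaling, DESeq2 (1.42.0) and edgeR (4.0.16) on recovered reads, only both groups, no trend, a replicate block, the study's threshold (unadjusted p under 0.05, absolute log2 fold change over 0.6) and each library left out. Ratios had 0.5 added to each sum. The limma steps were tested on simulated data.

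The 10 genes and the gene lists were chosen with earlier results of these data known. Of each list at most 4 genes, those with the smallest adjusted p between non-transferred and control colon, were named by rule, with the 5 genes nearest in profile to *Trdc* and to *Btnl1*. A gene that this rule names and a motif that was searched are not reported here. Others (*Cxadr*, *Cd209a*, *Cd24a*, *Cd3d*, *Ccr6*, *Tnfsf14*, *Trgv6*, *Trgc3*, *Muc2*, *Eomes*, *Cd8b1*, *Hnf4a* and *Cdx2*) were named after their values were seen.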

Additional observations from a re-analysis of the deposited data

How the results depend on the processing

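Numbers of called genes changed with the settings as follows. After the transfer, 1 of the 10 genes in place of 2 was called lower than in non-transferred colon with no variance trend. In transferred against control colon, 3 were called higher in the main test, 1 with a pseudocount of 10, 0 with edgeR, without a variance trend and when only both groups were compared, and 6 at the study's threshold with limma and with DESeq2, the latter chosen after seeing the data. Over single libraries left out, the numbers were 4 to 6 higher and 0 to 1 lower in non-transferred against control, 0 to 3 lower after the transfer, and 0 to 4 higher in transferred against control colon. No other setting moved a number of called genes by over 1.5 times.

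The labels do not say whether replicate numbers mark shared animals, and correlations between libraries did not decide it. Of 8 pairs of libraries with the same number, 3 had a correlation of deviations over 0.1 (-0.10 to 0.39), and of 31 other pairs 8 did (-0.40 to 0.28). With the replicate number as a block, the log2 fold changes of *Btnl4* and *Btnl6* in transferred against control colon were -0.027 and -0.20. *Cd160* (adjusted p = 0.0704) lost its call and *Btnl4* (0.0304) gained one in non-transferred against control, *Trdc* lost its call after the transfer (0.0931) and against control (0.0589), and *Btnl4* was called lower after the transfer (0.0225).

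Over single libraries left out, differences that changed sign were those of *Trgc4* after the transfer (-0.46 to 0.15), *Btnl6* in transferred against control (-0.13 to 0.29), the γ to β ratio in non-transferred against control (-0.067 to 0.37), *Itgae* to *Cd3e* after the transfer (-0.16 to 0.21), *Cd160* to *Cd3e* in non-transferred against control (-0.64 to 0.25), after the transfer (-0.50 to 0.25) and in transferred against control (-0.67 to 0.064), and the butyrophilin-like sum to epithelial markers in non-transferred against control (-0.20 to 0.067) and after the transfer (-0.19 to 0.021). The ratio of *Btnl1* to *Btnl6* kept its sign after the transfer (0.74 to 1.05) and against control (-0.68 to -0.56), but with 1 library fewer the smallest possible p was 0.0571 or 0.0952. The causes were not tested. *Cd160*, with as few as 6 reads in a library, is limited by depth.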
